A study of Mus musculus with 8 samples.

Results

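The 4 genes described here, H2-K1, H2-Q4, H2-Q6 and H2-Q7, encode heavy chains of mouse MHC class I molecules. They are the rows with these symbols among the 752 genes of the authors' deposited table. That table holds RNA-seq values of 8 subcutaneous tumors of MC38, a C57BL/6 colon adenocarcinoma line, in germ-free wild-type mice. In 4 tumors (36, 37, 39 and 40) the mice were given an antibody against PD-1 by intraperitoneal injection together with Fusobacterium nucleatum ATCC-25586 by gavage. In the other 4 (11, 17, 18 and 19) they were given the antibody alone, so both groups carry the antibody and both were taken on day 23. The sources used here do not give the age of the mice, the doses, the antibody clone, a vehicle for the gavage or whether each tumor came from its own mouse. All rows of the table were chosen by its authors on this same contrast, with an unadjusted p of at most 0.04995 and an absolute log2 difference above 1. The group differences below are therefore a description of chosen rows, and no member could have been listed without one.

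MHC class I heavy chains pair with beta-2-microglobulin and hold short peptides of the cell's own proteins at the surface, where CD8 T cells and natural killer cells read them. Classical chains such as H2-K1, which encodes H-2K, are made by nearly all nucleated cells and present a wide range of peptides to cytotoxic T cells. The Q region next to the classical D locus encodes nonclassical, Qa-type chains: H2-Q6 and H2-Q7 belong to the genes for Qa-2, a largely lipid-anchored molecule, and H2-Q4 encodes another nonclassical chain. Class I genes are induced by interferon through a compact promoter module. It holds a kappaB element of enhancer A, bound by NF-kappaB proteins, an interferon-stimulated response element (ISRE), bound by interferon regulatory factors, and downstream boxes where the coactivator NLRC5 acts.

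All 4 genes lie on chromosome 17 in the H-2 complex (GRCm38, GENCODE M21). H2-K1 (ENSMUSG00000061232) spans 33996017 to 34000347 on the minus strand. H2-Q4 (ENSMUSG00000035929) spans 35379617 to 35385290, H2-Q6 (ENSMUSG00000073409) spans 35424850 to 35430055 and H2-Q7 (ENSMUSG00000060550) spans 35439155 to 35443773, all on the plus strand. The start of H2-K1 is 1379270 bases from that of H2-Q4, while the starts of H2-Q6 and H2-Q7 are 14305 bases apart. All 4 are annotated as protein coding and share 17 of 17 KEGG pathways and 15 of 15 molecular function terms in the table, but 3 of 73 biological process terms.

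The promoters are shown because the 4 genes share them in large part although one of the genes lies far from the others. Each stretch runs from 5 bases before the kappaB element to 5 bases after the CCAAT box (RefSeq, GRCm38.p6, 5′ to 3′ on the gene's strand). Capitals mark the matches to 4 motifs, searched on both strands: GGGGATT, any 1 base and CC for the kappaB element, TTTCACTTC for the ISRE, TGACGT for the core of a cyclic AMP response element (CRE), and CCAATCA for the CCAAT box. In all 4 genes the CCAATCA match lies forward on the gene's own strand. The regions are chr17:34000328-34000463 (minus strand) for H2-K1, chr17:35379438-35379573 for H2-Q4, chr17:35424672-35424806 for H2-Q6 and chr17:35439017-35439150 for H2-Q7.
H2-K1: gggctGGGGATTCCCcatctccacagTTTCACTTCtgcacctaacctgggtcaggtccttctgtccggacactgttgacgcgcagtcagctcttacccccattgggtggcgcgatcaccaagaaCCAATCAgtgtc
H2-Q4: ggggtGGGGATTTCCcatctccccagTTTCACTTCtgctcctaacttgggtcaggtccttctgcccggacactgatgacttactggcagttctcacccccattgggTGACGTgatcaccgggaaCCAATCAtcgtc
H2-Q6: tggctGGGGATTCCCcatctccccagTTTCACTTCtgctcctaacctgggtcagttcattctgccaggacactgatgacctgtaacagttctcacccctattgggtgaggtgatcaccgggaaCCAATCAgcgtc
H2-Q7: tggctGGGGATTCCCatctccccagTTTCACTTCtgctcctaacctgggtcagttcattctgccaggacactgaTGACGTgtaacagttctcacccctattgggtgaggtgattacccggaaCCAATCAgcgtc

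All 4 stretches hold the kappaB element, the ISRE and the CCAAT box in the same order, and the map of motif matches shows their spacing. The letters of the motifs were chosen with these promoters in view, so their presence here is a description. Of 32851 RefSeq mouse promoters of 300 bases, 0.268% hold the kappaB letters, 0.505% the ISRE letters, 7.51% the CRE core and 7.82% the CCAAT letters. The first, second and last occur together in 6 promoters, which belong to the 4 genes (H2-K1 has a pair of listed starts) and to H2-D1, the other classical chain. The CRE core is in H2-Q4 and H2-Q7 and, within these windows, has no match in H2-K1 or H2-Q6. It stands at different places in the pair that hold it, from -73 in H2-Q4 and from -64 in H2-Q7, counted from each annotated start. The kappaB element begins at -174 and -133 in these genes, so the CRE core also differs in its place relative to that element. In H2-Q4 it follows the letters ATTGGG of the stretch, and in H2-Q7 it precedes them. The CCAAT match of H2-K1 lies at 9 to 15, after the annotated start, and those of the Q genes lie before theirs. The H2-Q6 and H2-Q7 stretches are 97.8% identical over 134 aligned bases, and H2-K1 is 84.3% to 85.3% identical to the Q genes.

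**Figure D1:**
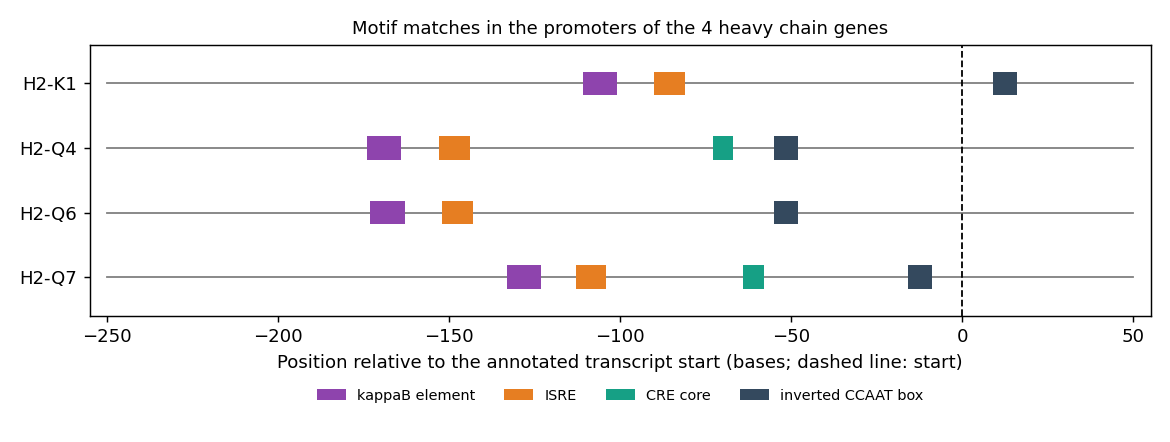
Motif matches in the promoters of H2-K1, H2-Q4, H2-Q6 and H2-Q7; the x axis is the distance in bases from the annotated transcript start, from 250 before to 50 after it, and coloured blocks are matches to the 4 motifs. The kappaB element and the ISRE lie close together in all 4 genes, and the CRE core is marked in H2-Q4 and H2-Q7. Blocks named inverted CCAAT box in the legend are the CCAATCA matches, which lie forward on the gene's strand.

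How far reads can tell these genes apart bears on every value. Between H2-K1 and the Q genes the coding sequences are 88.2% to 91.2% identical, and between H2-Q6 and H2-Q7 95.4%. In the H2-K1 transcript of the longest coding sequence, 91.2% of the 50-base windows and 100% of the 100-base windows occur in no other GENCODE gene. For H2-Q4 these shares are 60.8% and 86.1%, for H2-Q6 65.0% and 87.0%, and for H2-Q7 59.8% and 78.1%. The sources used here give neither the read length nor the treatment of reads with several matches. The single values of the 3 Q genes are therefore uncertain, since reads may have been shared out among near-identical copies.

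H2-K1 was the most abundant of the 4 chains in all 8 tumors. It had 45.3, 23.2, 21.0 and 28.6 FPKM (fragments per kilobase of transcript, scaled to the fragments mapped) in F. nucleatum tumors 36, 37, 39 and 40. In the anti-PD-1 tumors 11, 17, 18 and 19 it had 55.6, 58.8, 65.3 and 57.6 FPKM. The 4 anti-PD-1 tumors lay close together, all 4 F. nucleatum tumors lay below them, and tumor 36 was the nearest. The means were 29.5 ± 11.0 and 59.4 ± 4.19 FPKM (SD, n = 4 each), a ratio of 0.497. By mean level over the 8 tumors H2-K1 ranked 6 among the 752 genes and 2 among the 353 genes with a lower F. nucleatum mean. By size of the log2 difference it ranked 330 among those 353, close to the limit by which the authors chose their rows.

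H2-Q4 was the most abundant of the Qa-type chains. It had 7.60, 2.77, 2.86 and 4.50 FPKM in F. nucleatum tumors 36, 37, 39 and 40, against 8.95, 12.0, 14.5 and 9.72 FPKM in anti-PD-1 tumors 11, 17, 18 and 19. The groups did not overlap, and tumor 36 was again the highest of its group. The means were 4.43 ± 2.26 and 11.3 ± 2.52 FPKM (SD, n = 4 each), a ratio of 0.392.

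H2-Q6, one of the Qa-2 genes, had 3.12, 1.26, 0.866 and 1.40 FPKM in F. nucleatum tumors 36, 37, 39 and 40. In anti-PD-1 tumors 11, 17, 18 and 19 it had 4.69, 5.84, 3.93 and 4.09 FPKM. The groups did not overlap, and the lowest anti-PD-1 tumor here was 18, the tumor with the highest H2-K1 and H2-Q4. The means were 1.66 ± 0.998 and 4.64 ± 0.864 FPKM (SD, n = 4 each), a ratio of 0.358.

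H2-Q7, the other Qa-2 gene of the table, had 2.98, 0.661, 0.693 and 0.900 FPKM in F. nucleatum tumors 36, 37, 39 and 40. In anti-PD-1 tumors 11, 17, 18 and 19 it had 2.70, 4.70, 3.68 and 3.05 FPKM. Tumor 36 lay above anti-PD-1 tumor 11, so this was the only one of the 4 chains whose groups overlapped. The means were 1.31 ± 1.12 and 3.53 ± 0.879 FPKM (SD, n = 4 each), a ratio of 0.370.

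**Figure D2:**
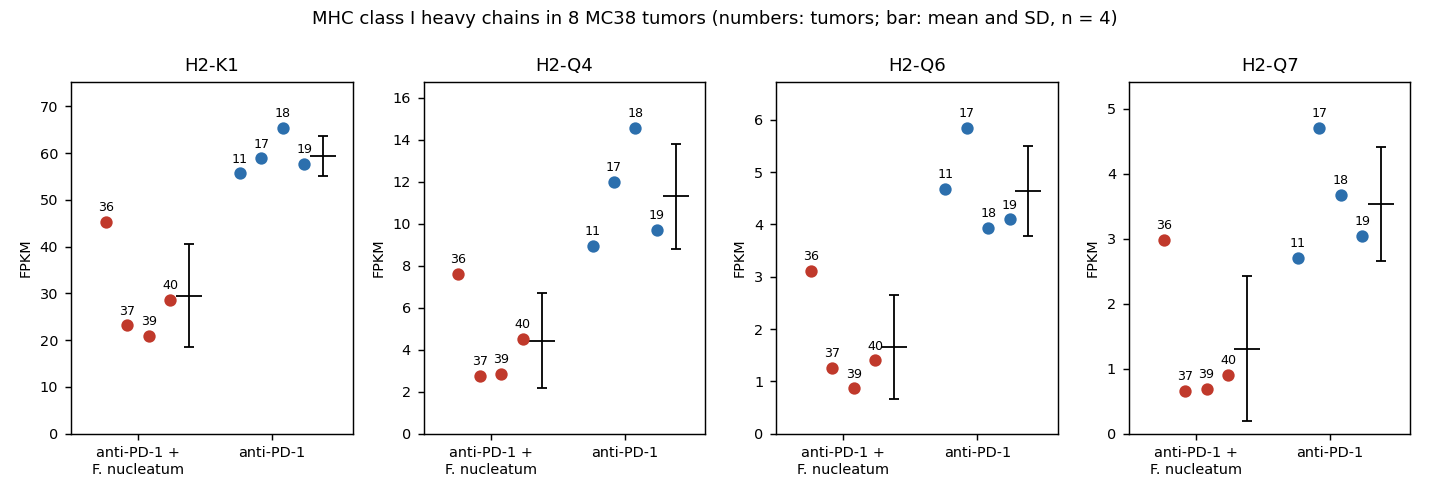
FPKM of H2-K1, H2-Q4, H2-Q6 and H2-Q7 (y axes, each from 0, with a scale of its own) in each tumor, with the 4 tumors given anti-PD-1 and F. nucleatum left of the 4 given anti-PD-1 alone; points are tumors with their numbers, black bars the mean and SD of 4. Tumor 36 is the highest F. nucleatum tumor in all 4 panels, and only in H2-Q7 does it reach into the other group.

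On the deposited log2 scale (log2 of normalized count plus 1) the difference of F. nucleatum minus anti-PD-1 means was -1.07 ± 0.244 for H2-K1, -1.45 ± 0.372 for H2-Q4, -1.62 ± 0.396 for H2-Q6 and -1.70 ± 0.524 for H2-Q7 (SE, n = 4 each). Of the 4 genes 3 had no overlap between groups in this direction, which held for 12.4% of the 752 genes. It held for 93 of the 353 lower genes, and for 24 of the 87 lower genes that averaged 1 FPKM or more. The authors' deposited table gives an FDR of 0.000124 for H2-K1, 0.000863 for H2-Q4, 0.00293 for H2-Q6 and 0.524 for H2-Q7, and 6.25% of its genes were lower with an FDR under 0.05. Which test gave that FDR is not stated in the labels.

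None of the 4 genes passed a test of the spread between tumors after adjustment. With limma on log2(FPKM + 1), over the 149 genes that averaged 1 FPKM or more, the unadjusted p was 0.0124 for H2-K1, 0.00888 for H2-Q4, 0.00586 for H2-Q6 and 0.0116 for H2-Q7. The adjusted p was 0.0664 for each, and 0% of the 149 genes were called. The 4 genes share this adjusted value with others, and 37.6% of the 149 genes were lower with an unadjusted limma p under 0.05. Two-sided exact permutation tests on the log2 values gave 0.0286 for H2-K1, H2-Q4 and H2-Q6, the smallest p that 70 arrangements allow, and 0.0571 for H2-Q7. Without tumor 36 the limma adjusted p was 0.00958 for all 4 genes, and the log2(FPKM + 1) differences were -1.27, -1.49, -1.37 and -1.35 for H2-K1, H2-Q4, H2-Q6 and H2-Q7, in place of -1.04, -1.24, -1.14 and -1.06. In that fit 38.3% of the 149 genes were called lower. Tumor 36 was the highest F. nucleatum tumor in all 4 genes, so leaving it out lowers that group's mean by construction. Adjustment was over rows already chosen on this contrast, so the adjusted p is not a false discovery rate over all genes. After median centring of the tumors the differences were -0.59, -0.79, -0.68 and -0.60 in the same order, and after quantile normalization -0.89, -0.73, -0.67 and -0.65. Both scalings used only the 149 genes, of which 87 had lower F. nucleatum means. As these genes were chosen on this contrast, such scaling can take away part of the group difference itself. How large that part is was not tested.

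Tumor 36 was above the 3 other F. nucleatum tumors in all 4 chains, and by more in the Qa-2 genes than in H2-K1. Its log2 normalized count exceeded the mean of tumors 37, 39 and 40 by 0.85 for H2-K1, 1.14 for H2-Q4, 1.36 for H2-Q6 and 1.92 for H2-Q7. The 3 other tumors spanned a range of 0.51, 0.73, 0.74 and 0.46 in the same genes. For H2-Q7 tumor 36 was 0.14 above the lowest anti-PD-1 tumor, and for H2-K1 it was 0.30 below it. On this scale none of the 4 gaps passed Dixon's criterion for a value far from 3 others, and in FPKM that of H2-Q7 did.

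That tumor and tumor 37 also carried RNA of other tissue. All 9 listed skeletal muscle markers were in the table, and their summed level was 1.94 to 393.4 FPKM in F. nucleatum tumors, highest in tumor 36, and 1.26 to 1.59 FPKM in anti-PD-1 tumors, where Tnnc2 and Mb were listed at 0. Of 9 keratinocyte markers 7 were in the table, with sums of 0.949 to 228.6 FPKM in F. nucleatum tumors, highest in tumor 37, and 0.839 to 0.977 FPKM in anti-PD-1 tumors, where Krt5, Krt14, Krt1, Krt6a and Dsg1a were listed at 0. With both tumors left out the limma adjusted p was 0.0230 for H2-K1, 0.0269 for H2-Q4, 0.0230 for H2-Q6 and 0.0260 for H2-Q7, in a fit that called 18.1% of the 149 genes lower. Epcam, the only one of 6 epithelial markers in the table, had 1.30 FPKM in tumor 37, 0.0121 FPKM in tumor 36 and was listed at 0 in tumors 39 and 40 and in the 4 anti-PD-1 tumors, so the label MC38 could not be checked further.

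The lymphocyte markers that the table held were lower with F. nucleatum, as the heavy chains were. Like all rows, these markers were chosen by the authors on this contrast, so a group difference was fixed by that choice. Listed markers outside the table were not analysed. Of 14 T cell markers 6 were in the table, and their sum was 0.516 to 2.06 FPKM in F. nucleatum tumors and 2.55 to 7.44 FPKM in anti-PD-1 tumors. Of 10 cytotoxic lymphocyte markers 7 were in the table, with sums of 0.642 to 6.51 FPKM and 9.91 to 21.3 FPKM in the same groups. None of these markers was listed at 0 throughout a group. Tumor 36 had the highest sum of the F. nucleatum group in both lists, as it had of the heavy chains, and within the anti-PD-1 group tumor 17 had the highest of both, as it had of H2-Q6 and H2-Q7. Tumor 18, with the lowest of both sums in that group, had the highest H2-K1 and H2-Q4. Itgax, the only one of 6 dendritic cell markers in the table, had 0.840 to 2.10 FPKM with F. nucleatum and 1.94 to 7.20 FPKM with anti-PD-1 alone. Red blood cell markers, 6 of 6 in the table, summed to 582.2 to 1455.9 FPKM with F. nucleatum and 357.6 to 657.5 FPKM with anti-PD-1 alone. No marker of the leukocyte, macrophage, B cell, neutrophil, fibroblast and endothelium lists was among the 752 genes. The part of any of these cells in the heavy chain values was not tested. In bulk tumor RNA, fewer cells that express a gene and less RNA per cell cannot be told apart.

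Qa-type chains were set against H2-K1 tumor by tumor, as log2 normalized count of the Q gene minus that of H2-K1, a difference in which the size factor of the tumor cancels. For H2-Q4 it was -2.75, -3.24, -3.05 and -2.84 in F. nucleatum tumors 36, 37, 39 and 40, and -2.81, -2.47, -2.34 and -2.74 in anti-PD-1 tumors 11, 17, 18 and 19. Tumor 36 lay within the anti-PD-1 range and the 3 others below it. For H2-Q6 it was -4.35, -4.68, -5.07 and -4.83 in the F. nucleatum tumors, and -4.06, -3.82, -4.54 and -4.30 in the anti-PD-1 tumors. Here too 3 of the 4 F. nucleatum tumors were below the anti-PD-1 range. For H2-Q7 it was -3.38, -4.56, -4.36 and -4.43 in the F. nucleatum tumors, and -3.82, -3.10, -3.60 and -3.70 in the anti-PD-1 tumors. Tumor 36 had the second highest H2-Q7 ratio of the 8, and tumors 37, 39 and 40 had the 3 lowest.

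The mean ratio to H2-K1 was lower with F. nucleatum for all 3 Qa-type chains, and none of these differences passed a test. The difference of F. nucleatum minus anti-PD-1 was -0.38 ± 0.155 for H2-Q4, -0.55 ± 0.217 for H2-Q6 and -0.63 ± 0.313 for H2-Q7 (SE, n = 4 each). Two-sided exact permutation p-values were 0.0571, 0.0571 and 0.114, and 0.0857, 0.0857 and 0.114 after Benjamini-Hochberg adjustment over the 3 ratios. On log2(FPKM + 1) the differences were -0.20, -0.093 and -0.014. The added 1 is large beside H2-Q6 and H2-Q7, which had as little as 0.866 and 0.661 FPKM. At a pseudocount of 0.1 they were -0.36, -0.49 and -0.54.

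**Figure D3:**
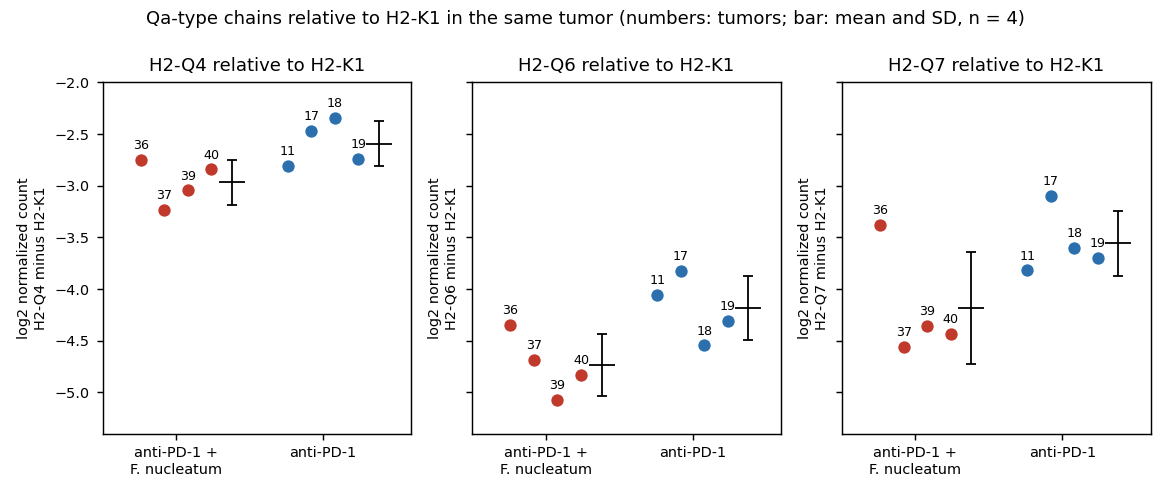
Log2 normalized count of H2-Q4, H2-Q6 and H2-Q7 minus that of H2-K1 in the same tumor (y axis, log2 scale); the 4 tumors given anti-PD-1 and F. nucleatum are left of the 4 given anti-PD-1 alone, with tumor numbers, and black bars are the mean and SD of 4. The groups overlap in all 3 panels, through tumor 36 in each.

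As shares of the summed FPKM of the 4 chains, H2-K1 made up 76.8%, 83.2%, 82.6% and 80.8% in F. nucleatum tumors 36, 37, 39 and 40. It made up 77.3%, 72.3%, 74.7% and 77.4% in anti-PD-1 tumors 11, 17, 18 and 19. The classical chain thus took at least 72.3% of the total in each of the 8 tumors. H2-K1 had 4.30 ± 0.731 times the summed Qa-type FPKM in F. nucleatum tumors and 3.10 ± 0.389 times in anti-PD-1 tumors (SD, n = 4 each). H2-Q4 stood at 14.5% ± 2.15 of the H2-K1 FPKM in the F. nucleatum tumors and 18.9% ± 2.92 in the anti-PD-1 tumors. H2-Q6 stood at 5.34% ± 1.16 and 7.87% ± 1.69, and H2-Q7 at 3.97% ± 1.75 and 5.94% ± 1.40, in the same groups (SD, n = 4 each). By FPKM H2-Q6 was above H2-Q7 in all 8 tumors, and by normalized count it was below H2-Q7 in all 8. The log2 normalized count of H2-Q6 minus that of H2-Q7 ran from -0.97 to -0.12. Which of these 2 chains is the less abundant thus depends on the measure. These shares come from the same libraries as the ratios above, but from FPKM rather than normalized counts. They were not tested.

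The order of the tumors was much alike in the 4 genes within the F. nucleatum group, and less so within the anti-PD-1 group. Tumors 36 and 40 were the highest and second highest of the F. nucleatum group in all 4 by FPKM, and tumors 37 and 39 exchanged the last places. In the anti-PD-1 group tumor 18 ranked 1 for H2-K1 and H2-Q4, 2 for H2-Q7 and 4 for H2-Q6, while tumor 17 ranked 1 for H2-Q6 and H2-Q7 and 2 for the others. Among the Qa-type chains the log2 difference between 2 genes had an SD over 8 tumors of 0.31 for H2-Q6 minus H2-Q7, 0.35 for H2-Q4 minus H2-Q6 and 0.35 for H2-Q4 minus H2-Q7. For H2-K1 minus H2-Q4 it was 0.29, minus H2-Q6 0.41 and minus H2-Q7 0.53. The single genes had larger SDs over the same tumors, 0.65 for H2-K1, 0.91 for H2-Q4, 1.01 for H2-Q6 and 1.14 for H2-Q7. These SDs include the difference between groups, on which the rows were chosen. Within the F. nucleatum group 5 of the 6 pair differences had a smaller SD than either gene of the pair, and within the anti-PD-1 group 1 of 6 did. There H2-Q4 minus H2-Q6 had an SD of 0.43, against 0.34 for H2-Q4 and 0.25 for H2-Q6.

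Over all 4 tumors of a group, the F. nucleatum tumors varied more among themselves than the anti-PD-1 tumors in each gene, and tumor 36 made up much of that. The SD of log2 normalized counts was 0.47 with F. nucleatum and 0.12 with anti-PD-1 alone for H2-K1, 0.66 and 0.34 for H2-Q4, 0.75 and 0.25 for H2-Q6, and 0.98 and 0.37 for H2-Q7 (n = 4 each). Without tumor 36 the F. nucleatum SD was 0.26 for H2-K1, 0.41 for H2-Q4, 0.39 for H2-Q6 and 0.26 for H2-Q7 (n = 3), for H2-Q7 below the anti-PD-1 SD. These spreads were not compared by a test. Counting error is small beside them: 143 reads, the fewest of any member in any tumor (H2-Q6 in tumor 39), have an exact 95% Poisson interval of 120.5 to 168.5. H2-K1 had 3795 to 13740 reads, H2-Q4 402 to 2415 and H2-Q7 160 to 1059. The interval covers counting error only, since reads from PCR are not independent molecules.

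Genes of peptide supply had lower means beside the heavy chains. Of 44 genes listed for class I presentation, from heavy chains and chaperones to proteasome subunits and regulators, the table held 7, all with lower means in the F. nucleatum group, where 46.9% of the 752 genes were lower. The median log2 difference of the 7 was -1.22. That of all 752 genes was 1.18, as 399 were higher and 353 lower. Since every row was chosen for an absolute log2 difference above 1, any lower gene lies below -1. The distance between these medians is therefore set by the choice of rows and measures no shift. The 3 that are not heavy chains were Psmb8 and Psmb9, the interferon-induced catalytic subunits of the immunoproteasome that cuts proteins into class I peptides, and Tap1, a chain of the transporter that moves those peptides into the endoplasmic reticulum. The 7 were chosen by the authors on this contrast, and values of the other 37, among them B2m and H2-D1, were not analysed here.

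Psmb8 had 4.91, 2.10, 1.91 and 2.13 FPKM in F. nucleatum tumors 36, 37, 39 and 40, against 4.44, 6.75, 7.14 and 5.87 FPKM in anti-PD-1 tumors 11, 17, 18 and 19. Tap1 had 3.08, 1.30, 1.09 and 1.61 FPKM in the F. nucleatum tumors, against 2.71, 5.40, 5.17 and 2.61 FPKM in the anti-PD-1 tumors. Psmb9 had 1.81, 0.752, 0.929 and 0.652 FPKM in the F. nucleatum tumors, against 1.48, 3.63, 2.91 and 1.58 FPKM in the anti-PD-1 tumors. In all 3 genes tumor 36 reached into the anti-PD-1 range while tumors 37, 39 and 40 stayed below it, the pattern of H2-Q7. The log2 differences were -1.22 ± 0.345 for Psmb8, -1.19 ± 0.431 for Tap1 and -1.21 ± 0.447 for Psmb9 (SE, n = 4 each). The limma adjusted p was 0.0738 for Psmb8, 0.0938 for Tap1 and 0.0965 for Psmb9. The authors' deposited table lists an FDR of 0.0148, 0.0669 and 0.131 in the same order. The kappaB and ISRE letters had no match in the RefSeq promoters of these 3 genes, whose starts are not the GENCODE gene starts, unlike those of the 4 heavy chains. These exact letters were chosen with the heavy chain promoters in view and occur in 0.268% and 0.505% of all promoters. Their absence therefore does not show that the 3 genes lack kappaB or interferon-response elements.

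**Figure D4:**
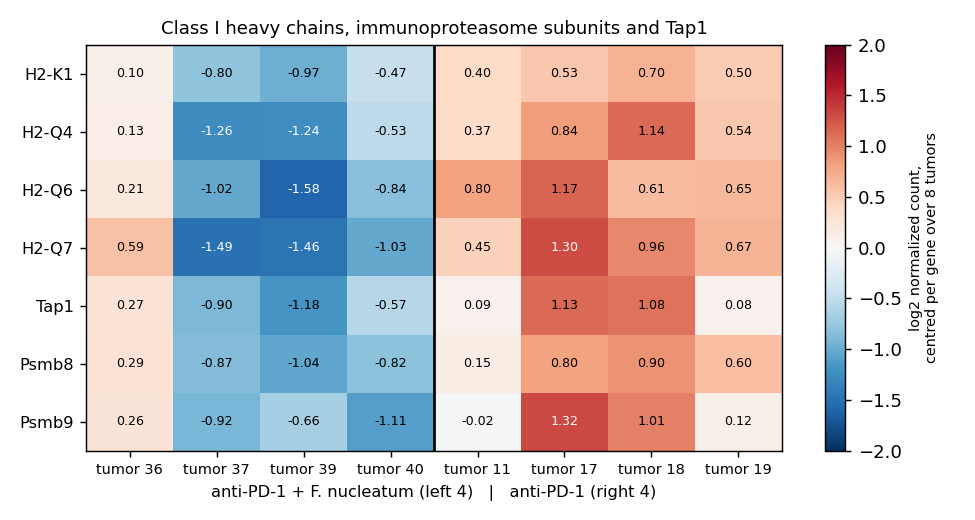
Log2 normalized counts of the 4 heavy chain genes, Tap1, Psmb8 and Psmb9 (rows) in the 8 tumors (columns), each gene centred on its mean over the 8; the 4 tumors given anti-PD-1 and F. nucleatum are left of the line and the 4 given anti-PD-1 alone right of it. Tumors 37, 39 and 40 are below the gene's mean in all 7 rows, and tumor 36 is 0.10 to 0.59 above it.

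The genes whose pattern was most like that of H2-K1 were sought among the 145 other genes that averaged 1 FPKM or more, by the root mean square distance of log2 normalized counts centred over the 8 tumors. The nearest were Psmb8 at 0.21, Sp140, a nuclear body protein, at 0.24, Il1r2, a decoy receptor for interleukin-1, at 0.25, Sla, an adaptor of lymphocyte receptor signalling, at 0.29, and Zbp1, a sensor of Z-form nucleic acids, at 0.30. To the mean of the 3 Qa-type chains the nearest were Zbp1 at 0.18, Psmb8 at 0.26, Tap1 at 0.31, and the interferon-induced GTPases Gbp7 at 0.35 and Gbp9 at 0.35. For comparison, H2-K1 lay at 0.27 from H2-Q4, 0.38 from H2-Q6 and 0.50 from H2-Q7. Psmb8, Sp140 and Il1r2 were thus nearer to H2-K1 than any Qa-type chain was. The values were centred but not scaled, so the distance also counts the size of the group difference. That was -1.22 for Psmb8, -1.08 for Sp140 and -1.06 for Il1r2, against -1.07 for H2-K1 and -1.45 to -1.70 for the Qa-type chains. All these genes were chosen on the same contrast, so part of the likeness is fixed by that choice, and no test was made.

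The H-2 complex held other listed genes besides the 4. Between the outer ends of H2-K1 and H2-M2, chromosome 17 from 33996017 to 37483552, the annotation has 320 genes, of which 20 were in the table. All 20 had lower means with F. nucleatum, the median of their log2 differences was -1.47, and 9 had no overlap between groups, beside 46.9% and 12.4% of all 752 genes. Among the 353 lower genes 93 had no overlap. Besides the 7 class I pathway genes they were the class II genes H2-Ab1, H2-Aa, H2-Eb1, H2-DMa, H2-DMb1 and H2-DMb2, the cytokine Ltb, the myeloid marker Aif1, the class I loci H2-Q5 and H2-M11, and BC051142, Gm25744 and Gm11131. H2-M11 and BC051142 were listed at 0 in all 4 F. nucleatum tumors and in at least 1 anti-PD-1 tumor, with anti-PD-1 means of 0.103 and 0.0225 FPKM. The log2 difference of the antigen-presenting class II chains was -2.06 ± 0.545 for H2-Ab1, -2.08 ± 0.606 for H2-Aa and -2.17 ± 0.550 for H2-Eb1. That of the class II loading chains was -1.36 ± 0.381 for H2-DMa, -1.17 ± 0.351 for H2-DMb1 and -1.46 ± 0.607 for H2-DMb2 (SE, n = 4 each). None of these was tested against those of the class I chains.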

How the data were processed

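Per the labels' protocols, RNA came from a TRIzol extraction and libraries from a TruSeq kit that keeps strand. FastQC, STAR 2.5, Cuffnorm, DESeq 1.22.1 and the build mm10 appear in the submitters' processing notes, where no role is stated. The authors deposited, for each gene, log2 values, FPKM values, a log2 fold change, a p-value and an FDR. The sources used here do not say whether the counting used strand. Each deposited log2 value is that of a size-factor normalized count with 1 added. For each tumor 100% of these counts above 0 were whole multiples of 1 step within 0.1 read, which gives reads (97511 to 308139 per tumor over the 752 genes) but no library total. Size factors were 0.644 to 1.27. Replicates are tumors, and p-values measure the spread between these 8.

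Tests were limma 3.58.1 in R 4.3.3 (trended eBayes) on log2(FPKM + 1) for those averaging 1 FPKM or more, tested on simulated data, and two-sided exact permutation tests, counting arrangements with an absolute mean difference at least as large. Each SE is that of the difference between group means, except limma's own. Other steps used Python 3.11.15, numpy 2.4.6, pandas 2.3.3, scipy 1.17.1, biopython 1.88 and matplotlib 3.10.9. GENCODE M21 holds all 752 gene IDs. The 4 members, lists and tests were chosen with earlier results of these data known, and the promoter motifs after the promoters were seen. Named genes were the members, listed genes in the table, the 5 nearest genes by distance and genes of the H-2 complex. Alternatives covered the pseudocount, filter, scaling, test, values and tumors left out.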

Additional observations from a re-analysis of the deposited data

Results flagged for a closer look

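In 34 sets of 4 tumors (7 class I genes on 2 scales and 3 ratios on 1, each in 2 groups), 3 had a tumor far from the others by Dixon's criterion. For a single set of normal values chance gives about 1 in 20. The sets share tumors and genes and are not independent, so their number cannot be set against that rate. All 3 flags were tumor 36 in the F. nucleatum group. For H2-Q7 it had 2.98 FPKM, against 0.661 to 0.900 FPKM in tumors 37, 39 and 40. For Psmb8 it had 4.91 FPKM, against 1.91 to 2.13 FPKM in those tumors, and on the deposited log2 scale 10.01, against 8.68 to 8.90.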

How the results depend on the processing

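All 4 heavy chains had lower F. nucleatum means under each of the alternatives that could be fitted, 18 for H2-K1 and H2-Q4 and 17 for H2-Q6 and H2-Q7, and the 3 ratios to H2-K1 under each of 12. With limma the adjusted p passed 0.05 in some settings and missed it in others, and their cause was not tested. It passed at a mean of at least 5 FPKM for H2-K1 (-1.04) and H2-Q4 (-1.24), where H2-Q6 and H2-Q7 were filtered out. It passed with array weights, whose estimation stopped before its convergence tolerance (H2-K1 -1.25, H2-Q4 -1.47, H2-Q6 -1.41, H2-Q7 -1.39), and without tumors 36 and 37 (-1.24, -1.39, -1.40 and -1.32 in the same order). It missed with median centring (-0.59, -0.79, -0.68 and -0.60) and quantile normalization (-0.89, -0.73, -0.67 and -0.65). With 1 tumor left out the differences ranged from -1.27 to -0.91 for H2-K1, from -1.49 to -1.09 for H2-Q4, from -1.37 to -0.99 for H2-Q6 and from -1.35 to -0.93 for H2-Q7, and the adjusted p passed only without tumor 36. Over all alternatives the adjusted p ran from 0.00245 to 0.225 for H2-K1 and from 0.00113 to 0.284 for H2-Q4. It ran from 0.000535 to 0.206 for H2-Q6 and from 0.00045 to 0.192 for H2-Q7. Genes called by limma numbered 0 in the main setting, 19 at a pseudocount of 0.1, 17 at 5 FPKM, 13 with median centring, 88 with array weights, 32 without tumors 36 and 37 and 0 to 60 with 1 tumor left out, 60 being without tumor 36. Centring each tumor to the same median of the 149 genes, themselves chosen on this contrast, adds 0.45 to every log2(FPKM + 1) difference. The pathway median was then -0.59, against -1.04 uncentred on that scale and -1.22 on the deposited log2 scale. With 1 tumor left out the median on the deposited scale was -1.52 to -1.12, with all 7 genes lower. The ratios to H2-K1 passed in none of 11 alternatives. The twelfth, without tumors 36 and 37, could not pass, since 2 tumors against 4 allow no exact p below 0.0667. The ratios ranged with 1 tumor left out from -0.45 to -0.29 for H2-Q4, from -0.68 to -0.43 for H2-Q6 and from -0.89 to -0.48 for H2-Q7. No paired analysis was possible because the labels give no replicate number shared by the groups. Depth limits H2-Q6 and H2-Q7 most.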

Other observations

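Beside the Q genes the table held H2-Q5 and an antisense gene that overlaps H2-Q4. Whether H2-Q5 shares reads with the Q genes was not tested. H2-Q5, annotated as a polymorphic pseudogene between H2-Q4 and H2-Q6, had 0.327 ± 0.329 FPKM with F. nucleatum and 0.851 ± 0.309 FPKM with anti-PD-1 alone (SD, n = 4 each). Gm11131, an antisense gene on the minus strand from 35377021 to 35380292 of chromosome 17, covers the start of H2-Q4 at 35379617, with 676 of its 3272 bases inside that gene. It had 0.0459 ± 0.0235 FPKM with F. nucleatum and 0.167 ± 0.0448 FPKM with anti-PD-1 alone (SD, n = 4 each), with no overlap between groups, the same direction as H2-Q4. Since it is not stated that the counting used strand, reads from those shared bases cannot be told apart.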
